A study of Mus musculus with 12 samples.

Results

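Complement is a system of proteins that marks particles for uptake and draws in leukocytes, and macrophages both make several of its components and carry receptors for its products. The 8 genes described here are complement components (C3, the 3 C1q chain genes C1qa, C1qb and C1qc, and Cfp) and complement receptors (C3ar1, C5ar1 and Itgam). They were matched by gene symbol, all 8 have a row, and they are 8 of 23764 genes in the deposited table. RNA sequencing of total RNA was done in RAW264.7, an immortalized mouse monocyte and macrophage line of Balb/c origin. All groups were given RANKL, the ligand that sets macrophages on the path to bone-resorbing osteoclasts. The treated groups received culture supernatant of the bacterium Lactobacillus reuteri and were harvested at day 1, day 3 or day 5. The vehicle groups received MEM-alpha medium at the same 3 days. Each of the 6 groups has 2 libraries, and the labels do not say whether these came from separate cultures, so p-values measure the spread between libraries, which may be technical.

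In the classical pathway, C1q binds to antibody or to other targets and starts a cascade of proteases. In the alternative pathway, C3 fragments and factor B form the C3 convertase, which properdin (Cfp) stabilizes. Cleavage releases the anaphylatoxins C3a and C5a, whose receptors are C3ar1 and C5ar1, while Itgam (CD11b) pairs with Itgb2 to form complement receptor 3, which binds C3 fragments on particles. In the bone of mice, C3a and C5a receptors and C3 itself have been linked to osteoclast formation.

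The upstream sequences of C3, C5ar1 and Cfp are shown because these are the 3 genes whose level passed the test between the arms. RefSeq promoters on GRCm38.p6 matched 7 of the 8 genes, C1qa being the one named only. The 250 bases before the start of C3 are at chr17:57228137-57228386, those of C5ar1 at chr7:16259339-16259588 and those of Cfp at chrX:20931556-20931805, all on the minus strand and written 5′ to 3′. Capitals mark matches to 2 forms searched on both strands: TTNNGNAA, a loose C/EBP form, in C3 and C5ar1, and GAAANNGAA, an interferon response form, in C5ar1 (its second run in capitals, read on the other strand).
C3: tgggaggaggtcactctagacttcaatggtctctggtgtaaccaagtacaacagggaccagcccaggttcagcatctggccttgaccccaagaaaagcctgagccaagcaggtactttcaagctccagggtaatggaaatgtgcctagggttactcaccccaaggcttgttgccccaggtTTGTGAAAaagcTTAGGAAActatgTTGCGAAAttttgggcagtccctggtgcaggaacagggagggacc
C5ar1: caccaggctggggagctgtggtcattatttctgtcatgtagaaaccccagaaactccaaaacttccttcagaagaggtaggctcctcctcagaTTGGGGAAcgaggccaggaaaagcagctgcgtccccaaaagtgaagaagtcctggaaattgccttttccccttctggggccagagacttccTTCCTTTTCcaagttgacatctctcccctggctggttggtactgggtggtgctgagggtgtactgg
Cfp: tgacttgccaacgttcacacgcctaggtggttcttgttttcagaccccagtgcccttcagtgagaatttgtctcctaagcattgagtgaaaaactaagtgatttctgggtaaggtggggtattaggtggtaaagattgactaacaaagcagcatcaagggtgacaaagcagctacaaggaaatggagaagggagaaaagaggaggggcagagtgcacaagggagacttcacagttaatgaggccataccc
C3 held the C/EBP form at 3 places, beginning at positions -70, -58 and -45 relative to the start, and the one nearest to the start matches on both strands. Of 32851 promoter windows of the same length, 36.8% held the form at least once and 2.61% at 3 or more places. C5ar1 held it once, and its interferon form, which 7.13% of windows held, began at position -66. Cfp held neither of them, nor the kappa-B form GGNNTTTCC (4.93% of windows) or the PU.1 form GAGGAAG (10.6% of windows). The kappa-B form stood in C3ar1, at position -14, and the PU.1 form in Itgam and C1qc, each of which also held the C/EBP form once, while C1qb held none of the 4 forms. A match is a description of letters, and these windows are of a later build than mm9, on which the authors worked.

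The libraries were of 2 kinds. In replicate 2 of days 3 and 5, in both arms, 38.1% to 48.8% of recovered reads lay on nuclear protein-coding genes, with 8071160 to 10724569 reads per library, and these 4 are called low-mRNA libraries. In the other 8 libraries that share was 85.2% to 87.6%, with 13812078 to 16781080 reads. Mitochondrial genes took 25.7% to 30.6% of reads in the low-mRNA libraries and 3.64% to 5.97% in the others, and the nuclear RNA Malat1 took 8.15% to 14.0% and 0.218% to 0.489%. Within the low-mRNA pairs these shares differed by arm: protein-coding reads were 47.0% in treatment and 38.1% in vehicle at day 3, and 48.8% in treatment and 41.0% in vehicle at day 5, and Malat1 was 8.67% in treatment and 14.0% in vehicle at day 3, and 8.15% in treatment and 9.84% in vehicle at day 5. The part of this in the differences of the low-mRNA pairs given for C3, C5ar1 and the other genes was not tested. A normalized count is a read number divided by the library's size factor. In the low-mRNA pairs most genes were higher in treatment, 77.6% at day 3 and 68.2% at day 5. The median treatment-minus-vehicle log2 difference over 14715 genes was 0.46 at day 3 and 0.23 at day 5. It was 0.16 and -0.01 when counts were scaled to the protein-coding total of each library. This scaling is called protein-coding CPM, that is CPM with nuclear protein-coding reads alone as the total. For log2 differences, the scaled values were first brought to the mean protein-coding total of the normalized counts, and 1 was added. In the replicate 1 pairs of days 3 and 5 the median on normalized counts was -0.01 and -0.09. A limma fit to all 12 libraries called 0 genes for treatment at any day. Because the 4 low-mRNA libraries have an unlike RNA composition, a second fit left them out. A gene is said to rise or fall when limma, fitted to the other 8 libraries, gave a Benjamini-Hochberg adjusted p under 0.05. That fit takes its spread from day 1 and has 1 library per arm at days 3 and 5, which are assumed to vary alike, and each of its treatment calls on the genes described here ended when any 1 library of day 1 was left out.

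C3, the protein on which all complement pathways converge, rose with treatment at day 1 and at day 3. It had 658.2 and 638.2 normalized counts in the 2 treated libraries of day 1, against 340.1 and 340.2 in the vehicle libraries. At day 3 it had 929.7 in treated replicate 1 and 278.7 in the treated low-mRNA library, against 246.1 and 32.3 in the vehicle libraries of the same kinds. At day 5 the treated values were 2210.4 in replicate 1 and 566.5 in the low-mRNA library, against 1980.2 and 72.1 in vehicle. Each treated library lay above the vehicle library of its number and day, and at day 1 and day 3 above both vehicle libraries of its day. At day 5 the groups overlapped, because vehicle replicate 1 was higher than the treated low-mRNA library.

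The log2 difference of C3 (treatment minus vehicle, in log2 of normalized count plus 1) was 0.93 at day 1 (SE 0.0511, adjusted p = 0.00741) and 1.91 at day 3 (SE 0.0722, adjusted p = 0.00432), a 1.90-fold and a 3.77-fold higher level. The day 5 difference of 0.16 (SE 0.0722, adjusted p = 0.244) did not pass. Averaged over the 3 days the difference was 1.00 (SE 0.0381, adjusted p = 0.00200). In the low-mRNA pairs, which this fit leaves out, the differences were 3.07 at day 3 and 2.96 at day 5, and 2.78 and 2.71 in protein-coding CPM. At day 5 the 2 pairs thus gave 0.16 and 2.96, so the size of the difference there depended on the pair.

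**Figure D1:**
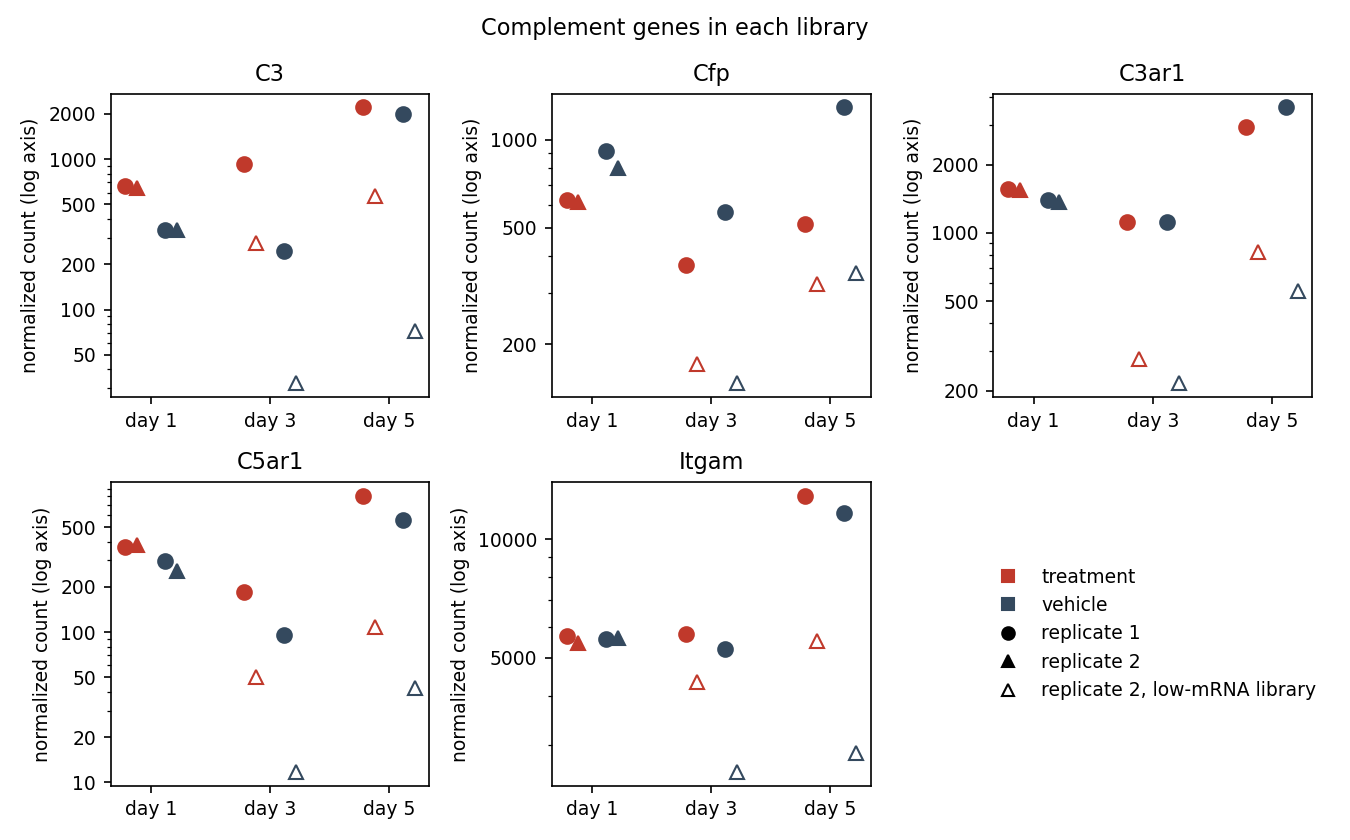
Normalized counts (log axis) of the 5 expressed genes in each library by day, treatment in red and vehicle in dark blue, circles for replicate 1, triangles for replicate 2, open triangles for low-mRNA libraries. C3 is higher in treatment within each kind of library, Cfp is lower in treatment among the filled symbols of each day, and open symbols lie below the filled ones of the same arm and day.

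Cfp encodes properdin, the positive regulator that stabilizes the alternative pathway convertase, and it fell with treatment at day 1 and at day 5. It had 620.4 and 610.8 normalized counts in the treated libraries of day 1, against 911.9 and 800.7 in vehicle. Day 3 gave 372.5 in treated replicate 1 and 171.6 in the treated low-mRNA library, against 564.2 and 147.0 in vehicle. At day 5 it had 516.6 and 321.2 in the treated libraries, against 1291.0 and 350.4 in vehicle. The groups did not overlap at day 1 and overlapped at days 3 and 5, where the low-mRNA pair was close to even.

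The log2 difference of Cfp was -0.47 at day 1 (SE 0.0766, adjusted p = 0.0368), -0.60 at day 3 (SE 0.108, adjusted p = 0.152) and -1.32 at day 5 (SE 0.108, adjusted p = 0.0134), the last a level 0.401 times that of vehicle. Averaged over the days it was -0.80 (SE 0.0571, adjusted p = 0.00521). In the low-mRNA pairs it was 0.22 at day 3 and -0.13 at day 5, and -0.08 and -0.38 in protein-coding CPM, so the day 3 sign of that pair turns with the scale. C3 and Cfp act in the same pathway, and the first rose where the second fell at day 1.

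The C1q chain genes were close to absent, and their few reads lay mostly in vehicle libraries of days 3 and 5. C1qa, C1qb and C1qc encode the 3 chains of the C1q molecule, a product of mature macrophages in mice. At day 1 the 3 genes together had 0 reads in both treated libraries, against 2 and 0 in vehicle. At day 3 they had 0 reads in treated replicate 1 and 1 in the treated low-mRNA library, against 13 and 2 in vehicle. At day 5 they had 2 and 3 reads in the treated libraries, against 20 and 27 in vehicle. The summed reads of the arms did not overlap at days 3 and 5. In the low-mRNA pair of day 3 this was only 1 read against 2, and C1qb ran the other way, with 1 read in treatment and 0 in vehicle. A count of 0 allows up to 3 reads in any single library.

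By chain, the vehicle libraries of day 5 had 7 and 9 reads of C1qa, 10 and 12 of C1qb and 3 and 6 of C1qc, so all 3 genes were found in both. The treated libraries of day 5 had 0 and 0 reads of C1qa, 1 and 2 of C1qb, and 1 and 1 of C1qc. Summed over the libraries of day 5 there were 5 reads in treatment and 47 in vehicle, which per size factor is a ratio of 0.0987 (95% interval 0.0306 to 0.247, exact binomial, counting error only). At day 3 the sums were 1 and 15 reads and the ratio was 0.0683 (0.00162 to 0.444). Set against a floor of 3 reads over the treated group, the 16 vehicle reads of C1qa at day 5 were 5.75-fold higher per size factor. That figure takes the vehicle reads as exact. C1qa and C1qc did not reach the filter for testing, and C1qb reached it only through vehicle day 5, so no test of the chain genes is given. In protein-coding CPM the day 5 sums were 0.165 in treated replicate 1 and 0.573 in the treated low-mRNA library, against 1.65 and 7.33 in the vehicle libraries of the same kinds.

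**Figure D2:**
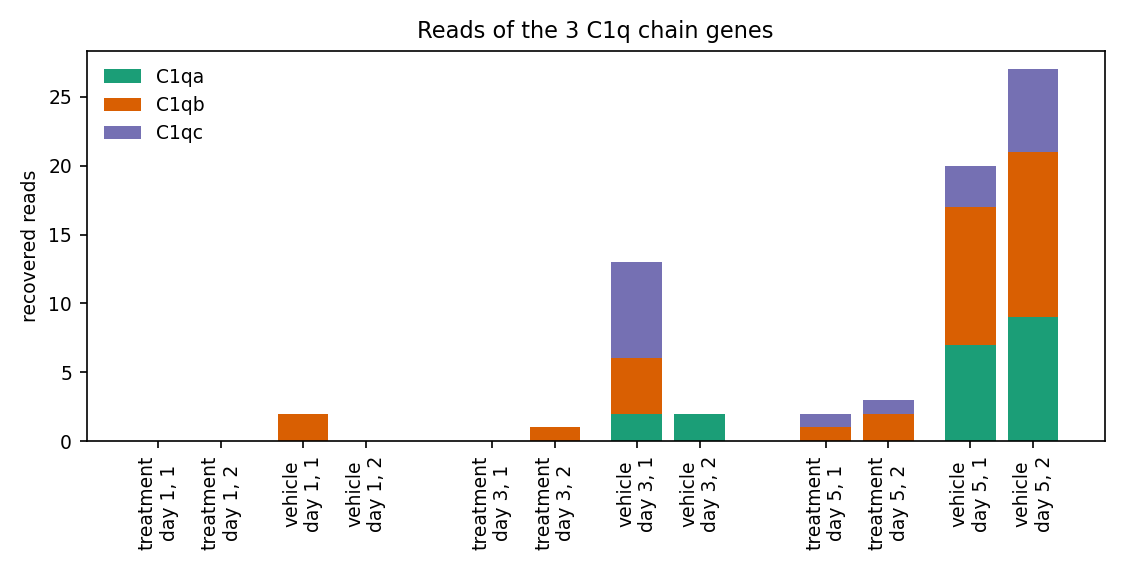
Recovered reads of the 3 C1q chain genes in each library, stacked, with arm, day and replicate on the horizontal axis. The 2 vehicle libraries of day 5 hold 20 and 27 reads and the 2 treated ones 2 and 3.

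Among the receptors, C5ar1, the G protein-coupled receptor of C5a, was higher in treatment at each day in both pairs and rose in the average over days. It had 371.2 and 380.7 normalized counts in the treated libraries of day 1, against 297.6 and 255.8 in vehicle. It had 183.9 and 50.4 in treatment at day 3, against 96.1 and 11.8 in vehicle, and at day 5 it had 807.5 and 107.8 in treatment, against 561.3 and 42.4 in vehicle, in each case with the low-mRNA library second. The groups were separate at day 1 and overlapped at days 3 and 5, since the low-mRNA treated library was below vehicle replicate 1. The difference was 0.44 at day 1 (SE 0.0964, adjusted p = 0.0659), 0.93 at day 3 (SE 0.136, adjusted p = 0.104) and 0.52 at day 5 (SE 0.136, adjusted p = 0.0886), none of which passed, and 0.63 in the average (SE 0.0718, adjusted p = 0.0116). The low-mRNA pairs gave 2.01 at day 3 and 1.33 at day 5, or 1.75 and 1.08 in protein-coding CPM.

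C3ar1, the receptor of C3a, did not pass in any treatment comparison of the 8-library fit, although limma-voom on the same libraries called it lower at day 5 (-0.29, adjusted p = 0.0178). It had 1562.3 and 1543.3 normalized counts in the treated libraries of day 1, against 1393.6 and 1377.9 in vehicle. At day 3 it had 1119.1 and 275.6 in treatment, against 1123.6 and 216.1 in vehicle, and at day 5 it had 2941.7 and 821.3 in treatment, against 3598.8 and 552.4 in vehicle. The groups were apart by a small margin at day 1 and overlapped later, and at day 5 replicate 1 was lower in treatment while the low-mRNA library was higher. The log2 differences were 0.16 at day 1 (SE 0.0414, adjusted p = 0.0880), -0.01 at day 3 (SE 0.0585, adjusted p = 0.987) and -0.29 at day 5 (SE 0.0585, adjusted p = 0.0553).

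Itgam, the alpha chain of complement receptor 3 and a general marker of myeloid cells, was the most abundant of the 8 genes and did not pass either. It had 5666.4 and 5447.8 normalized counts in the treated libraries of day 1, against 5592.4 and 5611.2 in vehicle. It had 5760.5 and 4336.7 in treatment at day 3, against 5273.5 and 2564.8 in vehicle, and 12902.8 and 5527.2 in treatment at day 5, against 11670.5 and 2868.2 in vehicle. The groups overlapped at every day. In protein-coding CPM the log2 difference of Itgam in the low-mRNA pairs was 0.45 at day 3 and 0.69 at day 5, below the values on normalized counts given next. The differences were -0.01 at day 1 (SE 0.0456, adjusted p = 0.898), 0.13 at day 3 (SE 0.0645, adjusted p = 0.512) and 0.14 at day 5 (SE 0.0645, adjusted p = 0.236), and 0.76 and 0.95 in the low-mRNA pairs of days 3 and 5.

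**Figure D3:**
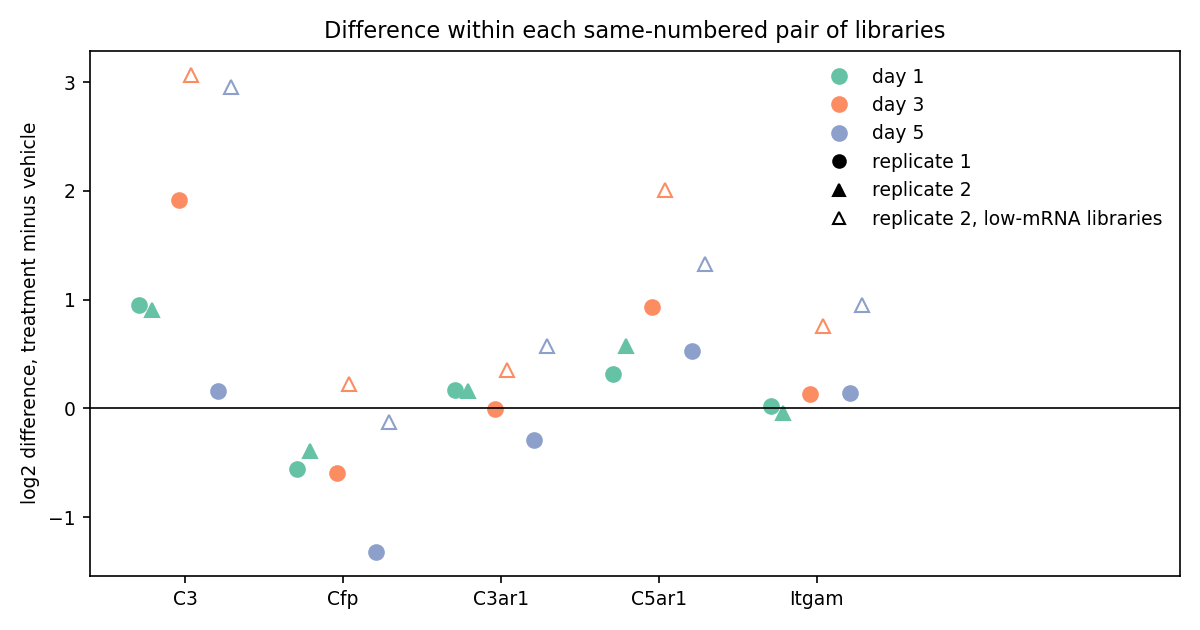
Log2 difference (treatment minus vehicle, log2 of normalized count plus 1) within each same-numbered pair of libraries, coloured by day, with open triangles for the low-mRNA pairs. C3 and C5ar1 lie above 0 in all 6 pairs, and the low-mRNA pairs lie above the replicate 1 pair of the same day for all 5 genes.

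Of the 5 expressed genes, which had a mean normalized count above 10 in every group, 1 rose and 1 fell at day 1, where 5.74% of all 14715 tested genes were called. At day 3 C3 alone rose, where 0.116% of genes were called. At day 5 Cfp alone was called, where 5.81% of genes were called. In the average over days, C3 and C5ar1 rose and Cfp fell, against 10.3% of genes called. With any 1 of the 4 libraries of day 1 left out, the adjusted p of C3 was 0.158 to 0.206 at day 1, 0.226 to 0.245 at day 3 and 0.0693 to 0.0826 in the average. That of Cfp was 0.173 to 0.245 at day 1, 0.116 to 0.122 at day 5 and 0.0693 to 0.0826 in the average, and that of C5ar1 in the average was 0.0778 to 0.0921.

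With all 12 libraries in limma, 0.0% of genes passed in each of the 9 comparisons, that of the treatment effect between days included. At an unadjusted p under 0.05 there were 19 genes at day 1, 43 at day 3, 51 at day 5, 109 in the average and 3 for the difference between days, and 168 and 174 for treatment days 3 and 5 and 288 and 207 for vehicle days 3 and 5 against day 1. In this fit C3 differed by 1.66 in the average (SE 0.885, adjusted p = 1.00), C5ar1 by 0.95 (SE 0.843) and Cfp by -0.46 (SE 0.472). Whether the treatment effect on any of the 8 genes differs between days is therefore not shown. The fit counts the difference between the kinds of library at days 3 and 5 as spread. With a block on the replicate number within days 3 and 5, or within each day, C3 and C5ar1 passed in the average. Cfp did not pass there, and with a block shared by all days none of these genes passed. A description that does not rest on either fit is the sign in the 6 same-numbered pairs, where a shared number at days 3 and 5 means a shared kind of library and not a pairing given by the labels. In the low-mRNA pairs 77.6% of all tested genes were higher in treatment at day 3 and 68.2% at day 5. C3 and C5ar1 were higher under treatment in all 6, as were 7.27% of all tested genes, and none of the expressed genes was lower in all 6, as were 2.04% of all tested genes.

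Within each arm the genes also differed between days, in the 8-library fit. At day 5 against day 1 in treatment, C3 rose by 1.77 (SE 0.0625, adjusted p = 0.00127), C3ar1 by 0.92 (SE 0.0507), C5ar1 by 1.10 (SE 0.118) and Itgam by 1.22 (SE 0.0559), 4 of 5 genes where 31.0% of all genes were called, and Cfp differed by -0.25 (SE 0.0938, adjusted p = 0.100). In vehicle all 5 rose, where 29.4% of genes were called: C3 by 2.54 (SE 0.0625), C3ar1 by 1.38, Itgam by 1.06, C5ar1 by 1.02 and Cfp by 0.59. C3 was thus at 2210.4 and 1980.2 normalized counts in replicate 1 of day 5, the highest of the 8 libraries in both arms. Cfp was highest in vehicle replicate 1 of day 5 and lowest in treated replicate 1 of day 3.

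At day 3 the direction was mostly the opposite. In treatment C3ar1 fell by 0.47 (SE 0.0507), C5ar1 by 1.03 (SE 0.118) and Cfp by 0.72 (SE 0.0938) against day 1, while C3 rose by 0.52 (SE 0.0625), and 20.0% of all genes were called. In vehicle C3 fell by 0.47 (SE 0.0625), C3ar1 by 0.30, C5ar1 by 1.51 and Cfp by 0.60, where 19.7% of all genes were called. C3 thus rose in treatment and fell in vehicle at day 3, 2 comparisons that have no library in common. The difference between them was not tested on its own. The rise in treatment rests on replicate 1 of day 3. In the treated low-mRNA library of day 3, which this fit leaves out, C3 went the other way. It was 46.7 there in protein-coding CPM, below the 60.3 and 58.9 of treatment at day 1. The vehicle low-mRNA library of day 3 had 6.68, against 31.2 and 31.3 in vehicle at day 1. Itgam passed in neither arm at day 3, with 0.05 in treatment and -0.09 in vehicle. Each of these day 3 calls ended when either library of day 1 of the same arm was left out (adjusted p between 0.0502 and 0.0911), and those of C3 in treatment and of C3ar1 and Cfp in vehicle also without either library of the other arm. The day 5 calls held, except that of Cfp in vehicle without vehicle replicate 2 of day 1 (adjusted p = 0.0562).

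The low-mRNA libraries of day 5 followed a different course. In protein-coding CPM, C3 in treatment was 91.4 in the low-mRNA library of day 5 and 198.6 in replicate 1, against 60.3 and 58.9 at day 1. In vehicle it was 13.8 in the low-mRNA library of day 5 and 178.0 in replicate 1, against 31.2 and 31.3 at day 1. C5ar1 in the low-mRNA libraries of day 5 was 17.4 in treatment and 8.14 in vehicle, below the day 1 values of 34.0 and 35.2 in treatment and 27.3 and 23.5 in vehicle. In these libraries C3 was thus above day 1 in treatment and below it in vehicle, C3ar1, C5ar1 and Cfp were below both day 1 libraries in both arms, and Itgam was above them, at 891.6 in treatment and 551.1 in vehicle. The osteoclast markers moved with the kind of library at day 5: the summed normalized count of the 8 listed (among them Acp5, Ctsk and Mmp9) was 2504 in treated replicate 1 and 17134 in the treated low-mRNA library, against 2697 and 15183 in vehicle. At day 1 this sum was 2507 to 2633 in treatment and 2285 to 2411 in vehicle, and at day 3 it was 5319 to 8399 in treatment and 3128 to 11213 in vehicle. Of the 8, Calcr was at 0 in both vehicle libraries of day 1 and of day 3, and Oscar in both treated libraries of day 1. Their part in the values of C3 and C5ar1 was not tested, and in bulk libraries fewer cells of a type and less RNA per cell cannot be told apart.

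All 7 macrophage markers listed (Adgre1, Cd68, Csf1r, Lyz2, Fcgr1, Mertk and Ptprc) had a row, and their summed count at day 1 was 158354 to 164360 in treatment and 117765 to 128991 in vehicle. It was 47570 to 98156 in treatment and 19822 to 76302 in vehicle at day 3, and 137058 to 307553 in treatment and 76884 to 321213 in vehicle at day 5. At day 1 the sum was mostly Lyz2, with 140362 and 135371 normalized counts in treatment and 104639 and 94717.5 in vehicle. Csf1r (9238.7 and 8534.5 in treatment, 10176.0 and 9266.5 in vehicle) and Ptprc (5605.4 and 5900.4 in treatment, 6073.3 and 6188.4 in vehicle) were lower in treatment. Cd68 (6548.1 and 6098.9 in treatment, 5639.4 and 5322.2 in vehicle) and Fcgr1 (121.2 and 114.6 in treatment, 82.6 and 70.9 in vehicle) were higher. Adgre1 and Mertk overlapped between the arms. At day 5 the sum of replicate 1 was lower in treatment and that of the low-mRNA library higher. The part of this list in the result for C3 was not tested. Markers of other cells that could bring complement into a culture were near 0 in all 12 libraries: Apoa1 of hepatocytes and Col1a1 of fibroblasts had at most 1.19 and 1.51 normalized counts, Mpo and Elane of neutrophils at most 1.57 and 1.41, and Cd79a of B cells at most 6.44. The other listed markers of these cells, and both of T cells, were looked for and had no row.

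Levels of different genes were compared in protein-coding CPM per kilobase of exon, at day 1, with exon lengths from an annotation of a later build than mm9. Itgam stood at 102 ± 2.28 in treatment and 102 ± 0.488 in vehicle (SD, n = 2 each). Cfp followed with 32.6 ± 0.182 in treatment and 45.3 ± 4.05 in vehicle, and C3ar1 with 33.2 ± 0.105 in treatment and 29.6 ± 0.166 in vehicle. C5ar1 had 13.5 ± 0.313 in treatment and 9.89 ± 1.03 in vehicle, and C3 had 11.6 ± 0.190 in treatment and 6.07 ± 0.0164 in vehicle. The order was the same in both arms except that C3ar1 was just above Cfp in treatment and below it in vehicle. The libraries of neighbouring genes did not overlap in either arm.

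The rest of the complement system was read from a list of 47 other genes by role, of which 32 had a row and 21 were tested. Among the 21, C8g, Cd46, C4a, Cr2 and C9 averaged only 5.70 to 9.15 normalized counts over the 12 libraries. They passed the filter of 10 only through their higher groups, and they stay in the medians and counts given here. At day 1 Cd93 rose and 20 did not pass (5.74% of all genes called), with a median log2 difference of 0.44 over the 21 against -0.04 over all genes. At day 3 none passed (0.116% of all genes called, median 0.16, all genes -0.01), and at day 5 Cd93 rose again (5.81% of all genes called, median 0.03, all genes -0.09). In the average over days 4 rose (C1ra, Cd93, Cfb and Clu), 1 fell (Fcna) and 16 did not pass, where 10.3% of all genes were called, with a median of 0.24 against -0.05. In all 6 pairs of libraries C1ra, C1rb, Cd59a, Cd93, Cfb and Clu were higher in treatment, 6 of 21 genes against 7.27% of all tested genes, a count for which C1rb and Cd59a were singled out after their values were seen.

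Factor B (Cfb), the protease partner of C3 in the alternative pathway convertase, had low counts. It had 37.0 and 39.4 normalized counts in treatment at day 1, against 18.9 and 21.5 in vehicle. Cfb counts at day 3 were 64.2 and 25.2 in treatment, against 14.8 and 0.0 in vehicle, and at day 5 it had 89.9 and 36.7 in treatment, against 37.7 and 8.5 in vehicle. Treated libraries lay above both vehicle libraries of their day at days 1 and 3, and at day 5 the low-mRNA treated library was just below vehicle replicate 1. The average difference was 1.39 (SE 0.139, adjusted p = 0.00867), while the single days had adjusted p = 0.0629, 0.0879 and 0.0621.

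Cd93, a surface protein first described as a C1q receptor, rose at day 1 by 1.45 (SE 0.1000, adjusted p = 0.00869) and at day 5 by 1.30 (SE 0.141, adjusted p = 0.0187). It had 674.6 and 691.2 normalized counts in treatment at day 1, against 272.7 and 228.9 in vehicle. At day 3 it had 101.0 and 63.0 in treatment, against 75.0 and 17.6 in vehicle, and at day 5 it had 2155.4 and 138.7 in treatment, against 873.2 and 49.5 in vehicle. The treated library was higher in each pair, and the low-mRNA libraries of day 5 were far below replicate 1 in both arms.

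C1ra, a protease of the classical pathway, rose in the average by 0.65 (SE 0.100, adjusted p = 0.0228), and its neighbour C1rb, a close copy that may share its reads, differed by 0.58 (SE 0.194, adjusted p = 0.125). Clu, the chaperone clusterin, which inhibits the terminal complex, rose by 0.67 in the average (SE 0.140, adjusted p = 0.0460). Fcna, a ficolin that starts the lectin pathway, fell by 0.38 in the average (SE 0.0811). At day 1 Fcna differed by -0.37 in the replicate 1 pair and by 0.008, close to even, in the replicate 2 pair. In the low-mRNA pairs it had more normalized counts in treatment, at 187.4 against 151.4 at day 3 and 334.2 against 250.1 at day 5. These are differences of 0.31 at day 3 and 0.42 at day 5. In protein-coding CPM they were 0.004 at day 3, close to even, and 0.17 at day 5. As with the 8 genes, the calls of Cd93, Cfb, C1ra, Clu and Fcna ended without any 1 library of day 1, where the adjusted p of Cd93 in the average was 0.0693 to 0.0826 and that of Fcna 0.104 to 0.160.

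**Figure D4:**
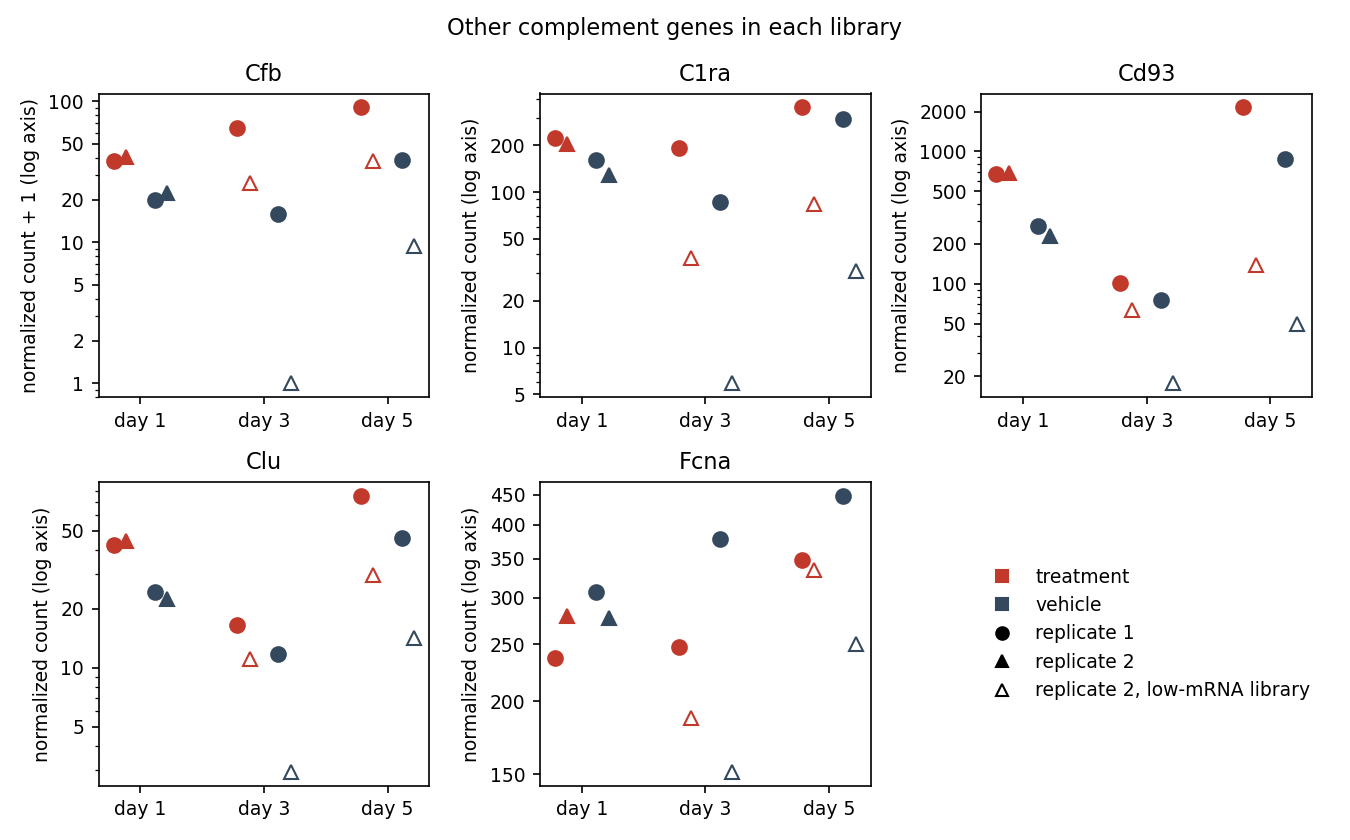
Normalized counts (log axis; plus 1 for Cfb, which is 0 in 1 library) of 5 other complement genes in each library by day, treatment in red and vehicle in dark blue, open triangles for low-mRNA libraries. Cfb, C1ra, Cd93 and Clu are higher in treatment within each kind of library and day, and at days 3 and 5 Fcna is lower in treatment in the filled symbols and higher in the open ones.

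Abundant genes of the list were Lrp1, an endocytic receptor that clears complement complexes, and Itgb2, the beta chain that pairs with Itgam. In treatment at day 1 Lrp1 had 9820.4 and 8975.1 normalized counts, against 9057.4 and 9709.9 in vehicle. Itgb2 had 7074.0 and 6607.9 in treatment at day 1, against 6511.1 and 5914.6 in vehicle. The groups of Lrp1 overlapped and those of Itgb2 did not, and neither gene passed in a treatment comparison. Itgb2 differed between the kinds of library far more than its partner: at day 3 the vehicle low-mRNA library had 391.0 normalized counts of Itgb2 against 4987.5 in replicate 1, and 2564.8 of Itgam against 5273.5. Of the listed genes, Mbl1, Mbl2, Fcnb, Colec10, C6, C7, C8a, C8b, Cfi, Cd55b, C4bp, Vtn, Cpn2, Susd4 and Csmd1 had no row.

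The genes most like each of the 5 were ranked by the root mean square difference of log2(normalized count + 1), each gene centred on its own mean, over 12 libraries and 11025 genes with a mean count of at least 50. All genes share the 4 low-mRNA libraries in this measure. For C3, whose own spread was 1.68, the nearest were Sirpb1b (0.35), Sirpb1a (0.52), 2 near-identical genes whose reads may be shared, and Cd300e (0.59). For Cfp (spread 0.89) they were Lpar6 (0.26), Ly86 (0.28) and Mettl7a1 (0.30). For C5ar1 (spread 1.67) they were Bhlhe41 (0.28), Asah2 (0.28) and Anxa3 (0.31). For C3ar1 (spread 1.16) they were Stk17b (0.13), Psmb9 (0.18) and Herpud1 (0.20), and for Itgam (spread 0.64) they were Napsa (0.17), Creld2 (0.21) and Pid1 (0.21). No one of the 5 genes was among the 3 nearest of another.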

How the data were processed

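Sample titles gave the groups and replicate numbers. The authors' tools were TopHat2, SAMtools and DESeq2, on mm9, per the submitters' processing notes. How reads were counted, and whether by strand, is not given in the sources used here. Reads of overlapping or antisense genes therefore cannot be told apart. The authors deposited log2 values per gene and library, which the values show to be log2 of a normalized count plus 8. Without that offset, 100% of positive values were whole multiples of 1 step within 0.02 reads, which gave the reads. Repeated rows were dropped, leaving 23764 genes.

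The 14715 genes that averaged 10 or more normalized counts in any group were fitted with limma 3.58.1 in R 4.3.3 (trended prior, 1 mean per group) on log2(normalized count + 1), which understates changes of low genes. One fit took all 12 libraries (6 residual degrees of freedom) and another the 8 with over 60% of reads on protein-coding genes (2 residual degrees of freedom). P-values were adjusted over all genes by Benjamini-Hochberg. The model was tested on counts simulated from vehicle day 1 means with the same dispersion in every library. That simulation held no low-mRNA libraries and no spread that differs by day, so it does not test the fits against either. No count test was run, as the deposited unit is log2, and limma-voom on recovered reads was an alternative. Others were leaving out each library, a block on the replicate number, dropping the filter, other pseudocounts, totals of protein-coding reads, quantile normalization and only the 2 groups compared.

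The 8 genes, the other gene lists and the rules were chosen with earlier results of these data known. Named genes were the 8, the listed complement genes called in a treatment comparison of the 8-library fit, the 3 most abundant, those without a row and the 3 nearest in pattern to each expressed gene. A gene that this rule takes is not reported here. Intervals cover counting error only, and floors leave out the counting error of the reads set against them. Python 3.11.15, numpy 2.4.6, pandas 2.3.3, scipy 1.17.1 and matplotlib 3.10.9 were used.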

Additional observations from a re-analysis of the deposited data

How the results depend on the processing

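With each library left out in turn, the 8-library fit called 0 genes for treatment at day 1, day 3 and day 5, 0 to 2 in the average, 59 to 571 for treatment day 3 against day 1, 1671 to 2428 for treatment day 5 against day 1, 0 to 1427 for vehicle day 3 and 715 to 2610 for vehicle day 5 against day 1. The 12-library fit called 0 each time, and 0 to 1 in the average. Without the filter the 8-library fit called 254, 1008 and 1381 genes for treatment at days 1, 3 and 5, 2537 in the average, 1721 and 2644 for treatment days 3 and 5 against day 1, and 1811 and 2424 for the vehicle ones. With limma-voom it called 2007, 341 and 1960 for treatment at days 1, 3 and 5 and 2759 in the average. At day 3 it called 17 genes, but 30 with protein-coding totals, and 10 or 37 with a pseudocount of 0.5 or 5. In the 12-library fit, protein-coding totals and quantile normalization each called 1 in the average, and only the 2 groups of day 1 called 820.

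Same-numbered libraries deviated together at days 3 and 5 (correlation of deviations 0.899 and 0.897) and not at day 1 (0.0701), and the labels give no pairing. The fit to all libraries without a block counts this shared deviation at days 3 and 5 as spread. Rises and falls are called from a fit without a block, and fits with a block on the replicate number are given as alternatives. Differences within same-numbered pairs are given as a description. A replicate block within days 3 and 5 called 6, 10 and 60 genes for treatment at days 1, 3 and 5, 354 in the average, 280 and 610 for treatment days 3 and 5 against day 1 and 423 and 431 for the vehicle ones. There the average of C3 (1.66, adjusted p = 0.0141) and of C5ar1 (0.95, adjusted p = 0.0140) passed and that of Cfp (-0.46, adjusted p = 0.185) did not. With a block within each day the adjusted p in the average was 0.0437 for C3, 0.0474 for C5ar1 and 0.334 for Cfp, and with a block shared by all days it was 1.00 for each. A block within each day called 4, 17 and 158 for treatment at day 3, day 5 and in the average, 73 and 73 for treatment days 3 and 5 against day 1 and 122 and 54 for vehicle, and a block shared by all days 2 in the average.

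Of the expressed genes' values under the alternatives, 336 kept direction and side of the threshold, 59 no longer passed, 6 newly passed and 4 turned sign, all near 0: C3ar1 at day 3 was 0.0035 with protein-coding totals and 0.0072 with quantile normalization, and Itgam at day 1 was 0.011 with quantile normalization and 0.017 without treated replicate 2 of day 1, against -0.040 without treated replicate 1. With limma-voom C5ar1 passed at each day (adjusted p = 0.00624, 0.0174 and 0.00480), Cfp also at day 3 (-0.60, adjusted p = 0.0166) and C3ar1 as a fall at day 5 (-0.29, adjusted p = 0.0178, and 0.0307 with no filter), while Cfp at day 1 did not pass with quantile normalization (adjusted p = 0.0523). The calls of C3, C3ar1 and Itgam between day 5 and day 1 held in both arms under every alternative run on the 8 libraries. Depth limits what can be said of the C1q genes, since a count of 0 allows up to 3 reads in a library.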
